A study of Rattus norvegicus with 12 samples.

Results

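The T9 segment of the rat spinal cord was compared between animals with a hemisection at T9, 5 days after the injury and without stimulation, and animals without spinal cord injury. The members are 8 of the 12 libraries in the series, 4 uninjured and 4 injured, chosen by the group given in the labels, and the 5285 of 32883 genes that passed a filter on low counts. All animals were Sprague Dawley rats, an outbred strain. Uninjured animals had no injury, and the injured animals had the hemisection alone. The remaining 4 libraries came from injured animals with epidural electrical stimulation. They entered the low-count filter and the scaling of libraries as well as the model, where they helped to estimate the spread between libraries. Age and sex are not given in the labels, which also do not say whether each library is 1 animal, so the spread behind each p-value is that of libraries and may be technical in part.

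A hemisection cuts a single side of the cord and spares the other. In the first week after such a lesion, blood-derived immune cells are known to enter the segment, microglia take up debris, astrocytes become reactive, fibroblasts begin to lay down a scar, and neurons and myelin are lost near the cut. Changes in the make-up of the cells and changes inside the cells both move the RNA of the whole segment. In bulk tissue, fewer cells of a type and less RNA per cell cannot be told apart. The genes are given by Ensembl identifiers, 0 of which could be paired with a symbol from the tables at hand. Markers of cell types were therefore not read, the labelled tissue was not checked against them, and genes are described here by direction, size, level and library.

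Total counts were 254762 to 450114 in uninjured and 399386 to 553986 in injured cord. Injured replicate 1 lay nearer to the uninjured libraries than the other injured libraries did. At equal depth, 2 libraries can be compared by the percentage of counts that sit on different genes. Pairs of injured libraries differed by 18.2% to 23.3% of their counts. Uninjured replicates 2 and 3 differed by 15.3%, and uninjured replicates 1 and 4 by 17.5%, while the other 4 uninjured pairs differed by 25.1% to 28.0%. Pairs across the groups differed by 25.7% to 38.0%, with a median of 34.0% over 16 pairs. The 4 pairs of injured replicate 1 with uninjured libraries lay at 25.7% to 30.3%, and the 12 pairs of the other injured libraries at 30.9% to 38.0%. Uninjured replicates 3 and 4, the uninjured pair farthest apart (28.0%), thus differed by more than injured replicate 1 did from uninjured replicate 2 (25.7%) or 3 (27.4%). These distances include counting noise, and no test was attached because the pairs share libraries.

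**Figure D1:**
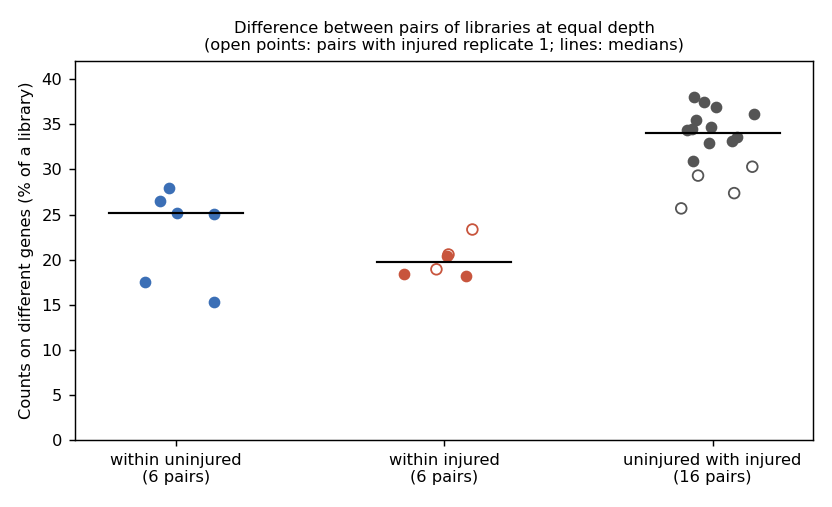
Percentage of counts that sit on different genes (y axis) for each pair of libraries at equal depth, within uninjured cord, within injured cord and across the groups, with lines at the medians and open points for pairs with injured replicate 1. The open points across the groups lie at 25.7% to 30.3%, and the filled ones at 30.9% to 38.0%.

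The comparison asked how the segment of the lesion differed from uninjured cord. Higher levels in injured cord were found for 889 genes, or 16.8% of those tested, and lower levels for 803 genes, or 15.2% (p under 0.05 in the quasi-likelihood test of edgeR, after Benjamini-Hochberg adjustment). In all, 32.0% of the genes tested were called. The genes that rose had a median fold change of 3.39, which is 1.76 on the log2 scale, with quartiles of 1.25 and 2.59 on that scale. The genes that fell kept a median of 37.8% of their uninjured level, with quartiles of 29.9% and 47.1%. The median log2 fold change of all tested genes was -0.004. With scaling to total counts in place of TMM factors that median was 0.12, a shift toward injured cord shared by all genes, and 1022 genes were called higher and 665 lower.

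The genes that rose and those that fell started from different levels. Risen genes had a median of 32.1 CPM (counts scaled by library size) in uninjured cord and 107 CPM in injured cord. Fallen genes had a median of 151 CPM in uninjured cord and 57.6 CPM in injured cord. The median over all tested genes was 70.6 CPM in uninjured and 70.7 CPM in injured cord. A count was found in every uninjured library for 764 of the 889 risen genes, and in every injured library for 797 of the 803 fallen genes. Only 5 of the risen genes were uncounted throughout uninjured cord. Of all 5285 tested genes, 5124 had a count in all 8 libraries, so the filter left few genes absent from a library. Among genes past the filter, most rises were thus gains in transcripts already counted in uninjured cord. A missing uninjured count was still more frequent among risen genes than among all tested genes. Nearly all fallen genes could still be counted at 5 days, which is close to the share among all tested genes.

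The filter bears on these numbers. A gene passed when at least 4 of the 12 libraries reached 30.4 CPM, which is 10 counts at the median depth. The lowest mean count kept was 5.67, and the highest left out was 13.8. A gene that reached the minimum in all injured libraries but not in all uninjured ones was more likely to be one that differed. There were 939 such genes, and 437 rose and 0 fell. Of the 533 genes with the opposite pattern, 0 rose and 317 fell. The 2633 genes that reached the minimum in all 8 libraries were measured on more equal terms, and here 287 rose and 436 fell. In that class 45 genes rose and 34 fell at least 4-fold, and 12 rose and 2 fell at least 8-fold. A further 1180 genes passed without reaching the minimum in every library of either group, and 165 of them rose and 50 fell. The near balance of 889 and 803 therefore joins classes with opposite leanings and gives no ratio of rises to falls for the tissue.

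At least 8-fold changes were fitted in 145 risen and 3 fallen genes, and the lowest fallen gene kept 10.7% of its uninjured level. Of the 145 risen genes, 76 reached the filter's minimum throughout injured cord but not throughout uninjured cord, and 57 did so in neither group, so the gap between 145 and 3 is no measure of how far rises and falls went. Where both groups reached the minimum, the 8-fold changes were the 12 rises and 2 falls given above. The number of 8-fold falls also moved with the libraries. Injured replicate 1 had the highest injured level in 529 of the 803 fallen genes, and without it 28 genes fell at least 8-fold and 162 rose that far. The falls numbered 5, 7 and 10 without uninjured replicates 1, 3 and 4, and 10 without injured replicate 4. They numbered 14 with limma-voom and sample weights, 6 with a correction for shared identifiers, 5 after thinning and 1 with either form of total-count scaling. With no low-count filter, 76 genes fell at least 8-fold and 284 rose that far, and with a mean count of at least 20 the numbers were 3 and 77.

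Which direction held more of the large changes depended on the level at which genes were chosen. From 100 CPM or more in uninjured cord, 26 genes rose and 85 fell at least 4-fold, among 1956 genes. From 100 CPM or more in injured cord, 174 rose and 23 fell at least 4-fold, among 1957 genes. Among the 100 genes with the highest mean level over all libraries, 24 rose and 26 fell, and 14 rises but 1 fall reached 4-fold. In the next 900 genes the 4-fold changes were 69 rises and 25 falls. Choosing genes by 1 group favours changes away from that group.

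**Figure D2:**
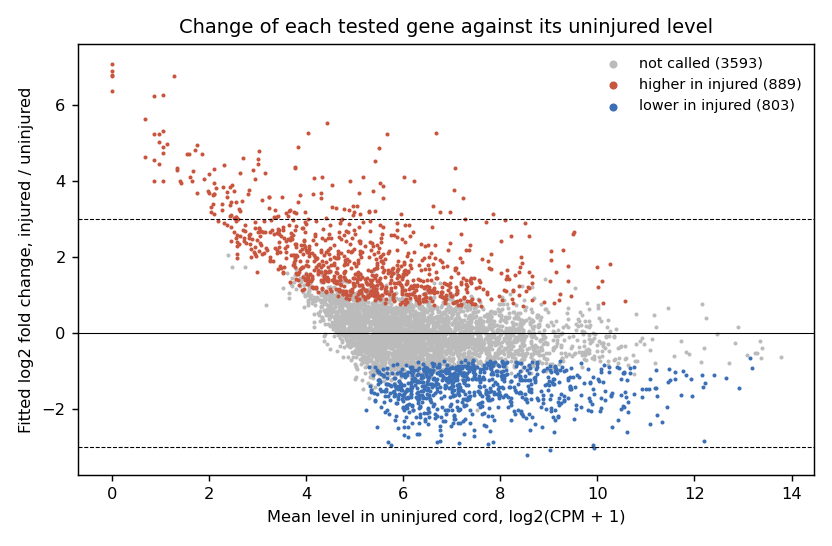
Fitted log2 fold change, injured over uninjured (y axis), against mean uninjured level as log2(CPM + 1) (x axis) for each of 5285 tested genes, with colours for the 889 genes called higher and the 803 called lower and dashed lines at 8-fold. Rises reach far past the upper line at low uninjured levels, where the slanting lower edge of the cloud is set by the filter, and 3 falls pass the lower line.

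The shift was also measured in libraries that had no part in choosing the genes. Each library was left out in turn, genes were called on the others, and the share of the left-out library's counts on those genes was taken. Genes called higher held 5.62%, 5.13%, 5.29% and 6.65% of the counts of uninjured replicates 1 to 4. They held 17.6%, 21.2%, 21.5% and 20.2% of injured replicates 1 to 4. The groups did not overlap, with means of 5.67% ± 0.685 and 20.1% ± 1.77 (SD, n = 4 each).

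Genes called lower held 26.2%, 27.3%, 24.0% and 28.9% of left-out uninjured replicates 1 to 4. In injured cord they held 17.6% of replicate 1, and 8.54%, 8.08% and 10.1% of replicates 2 to 4. The means were 26.6% ± 2.06 and 11.1% ± 4.44 (SD, n = 4 each). By these shares, each over its own gene set, injured replicate 1 was closer to the other injured libraries on the risen genes than on the fallen ones. It kept 17.6% of counts on fallen genes where the others kept at most 10.1%. The gene sets differ in size from library to library (745 to 942 genes higher and 624 to 871 lower), so no test was attached. The sets for injured replicate 1 held 916 higher and 871 lower genes. Those for injured replicates 2 to 4 held 773, 745 and 774 higher and 669, 624 and 693 lower genes. A larger set can hold more counts, which would narrow the gap of replicate 1 on risen genes and widen it on fallen ones. Shares on a common gene set were not taken.

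**Figure D3:**
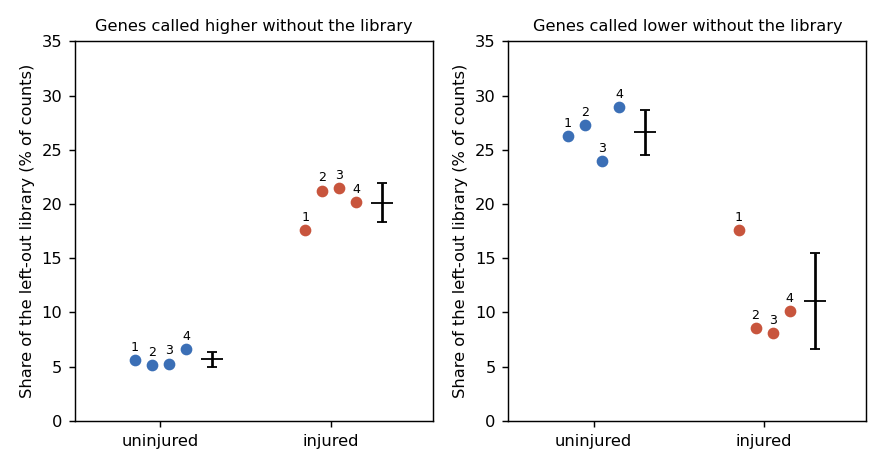
Share of the counts of each left-out library (y axis, percent) on genes called higher (left) or lower (right) without that library, with replicate numbers on the points and the group mean and SD beside them (n = 4). Injured libraries hold 17.6% to 21.5% on risen genes against 5.13% to 6.65% in uninjured ones, and injured replicate 1 stands above the other injured libraries on fallen genes.

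No single gene held most of the gain or of the loss. Between the group means, 27.0% of all counts sat on different genes. This value includes counting noise and spread between libraries. Single pairs of uninjured libraries differed by 15.3% to 28.0% at equal depth. Of 8364 genes with a gain, the 201 with the largest gains held 50% of it. Of 8729 genes with a loss, the 133 with the largest losses held 50% of it. No single gene gained more than 0.395% or lost more than 0.425% of the counts. At equal depth, 50% of the counts were held by 337, 393, 337 and 397 genes in uninjured replicates 1 to 4 and by 456, 447, 405 and 563 genes in injured replicates 1 to 4. Every injured library thus spread its counts over more genes than any uninjured one (366 ± 33.5 against 468 ± 67.3 genes, SD, n = 4 each). The exact two-sided permutation p was 0.0286, the smallest that 4 against 4 can give, and 0.114 after adjustment over 4 measures. The share of counts on the 100 most abundant genes of a library, a related measure, did overlap between the groups. It was 31.5% ± 2.05 in uninjured and 27.5% ± 2.49 in injured cord (SD, n = 4 each, exact two-sided permutation p = 0.0571, adjusted p = 0.114). Injured replicate 3 was at 30.3% and uninjured replicate 2 at 29.1%. Injured libraries had the higher mean total, and the highest count lay at 4062 to 4094 in every library whatever its depth. The gene with that count therefore takes a smaller share of a deeper library, which thinning does not undo. What this limit adds to the difference in gene number and to the loss was not tested. The number of genes detected at that depth was 10492 ± 219 in uninjured and 10433 ± 228 in injured cord (exact two-sided permutation p = 0.714, adjusted p = 0.714).

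For changes that exceed 2-fold by more than their error, a stricter test was used. It called 381 genes higher and 146 lower (edgeR test against a 2-fold change, adjusted p under 0.05), or 7.21% and 2.76% of those tested. Of the 3593 genes not called by the main test, 1223 (34.0%) had a 95% limma-voom interval that stayed within 2-fold in both directions. For 36 it stayed within 1.5-fold. The other 2370 genes not called could have changed by more than 2-fold at this depth and number of libraries. The median interval of the log2 fold change was 1.28 wide in the 100 most abundant genes, 1.32 in the next 900 and 1.55 in the rest.

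Libraries overlapped in part of the called genes. All injured libraries lay above all uninjured ones in 875 genes, or 16.6% of those tested, and below them in 713 genes, or 13.5%. Among the risen genes 757 were separated in this way and 132 overlapped, and among the fallen genes 600 were separated and 203 overlapped. The lowest injured level of a risen gene was in replicate 1 for 459 of 889 genes, in replicate 4 for 220, in replicate 2 for 127 and in replicate 3 for 83. The spread between replicates was set side by side without a test. The common biological coefficient of variation was 36.0% in uninjured and 31.1% in injured cord, and leaving out a library gave 32.5% to 38.1% and 28.4% to 33.0%. Over all tested genes the median SD of log2(CPM + 1) was 0.52 in uninjured and 0.43 in injured cord. For risen genes it was 0.61 in uninjured and 0.44 in injured cord, and 0.37 in injured cord without replicate 1. For fallen genes it was 0.41 in uninjured and 0.52 in injured cord, and 0.42 in injured cord without replicate 1. Risen and fallen genes alike thus had the larger SD in the group where their level was lower.

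High counts approached a limit. The same gene had the highest count in all 8 libraries, at 4062 to 4094, just under 4096, the number of different identifiers of 6 bases. Of the 79 tested genes with more than 1024 counts in any of the 8 libraries, 21 rose and 28 fell, which is 62.0% of them, against 32.0% of all tested genes and 50% of the 100 most abundant ones. A correction for identifiers that 2 molecules share raised the size of their called log2 fold changes by a median of 0.14. Whether reads were collapsed by identifier is not given in the sources used here, so this correction is an assumption.

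The genes with the largest rise and fall, among called genes with a mean of at least 20 counts and no overlap between the groups, are given by identifier. ENSRNOG00000054251 had 0, 1, 1 and 0 counts in uninjured replicates 1 to 4 and 57, 75, 162 and 86 counts in injured replicates 1 to 4. Its level in injured cord was 112, 194, 427 and 146 CPM, with replicate 3 above the others. From a level counted in only 2 of the uninjured libraries, this gene came to rank 894 of 5285 in injured cord. Set against library totals, its summed counts were 136 times higher in injured cord (95% counting interval 37.3 to 1123, edgeR adjusted p = 2.44e-06). After thinning to equal totals no uninjured count was left, and the ratio was at least 55.3, from a floor of 3 counts over the group.

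ENSRNOG00000037563 had 1 count in uninjured replicate 1 and 0 in replicates 2 to 4. In injured replicates 1 to 4 it had 22, 40, 52 and 53 counts, which is 43.3, 103, 137 and 89.7 CPM. The lowest of the injured libraries was again replicate 1. Set against library totals, its summed counts were 119 times higher in injured cord (95% counting interval 21.1 to 4732, edgeR adjusted p = 1.04e-05). This ratio was 78.8 without uninjured replicate 2, and at least 32.1 without uninjured replicate 1, from a floor of 3 counts over the group.

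ENSRNOG00000001915 and ENSRNOG00000013679 had the largest falls by the same rule, and their order turned when some libraries were left out and after thinning. The level of ENSRNOG00000001915 was 577, 254, 194 and 475 CPM in uninjured replicates 1 to 4 and 88.5, 36.2, 5.27 and 25.4 CPM in injured replicates 1 to 4. The groups did not overlap, and uninjured replicates 1 and 4 were above 2 and 3. The log2 fold change was -3.22 (SE 0.55, edgeR adjusted p = 0.000339). Leaving out injured replicate 1 gave -4.05.

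ENSRNOG00000013679 was at 282, 768, 772 and 262 CPM in uninjured replicates 1 to 4 and at 106, 36.2, 50.1 and 52.5 CPM in injured replicates 1 to 4. Here uninjured replicates 2 and 3 were above 1 and 4, the reverse of the order in the gene before. The log2 fold change was -3.07 (SE 0.41, edgeR adjusted p = 4.86e-05). In both fallen genes injured replicate 1 had the highest injured level. In the test against a 2-fold change, edgeR adjusted p was 9.97e-06 and 6.21e-05 for the rises and 0.00297 and 0.000564 for the falls. The 4 genes were chosen for large changes in these same libraries, so passing that test adds no support. Of the 145 rises and 3 falls of at least 8-fold, 144 and 3 passed it. The 2 genes that rose were below the filter's minimum in every uninjured library and passed the filter through the injured and stimulated ones.

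**Figure D4:**
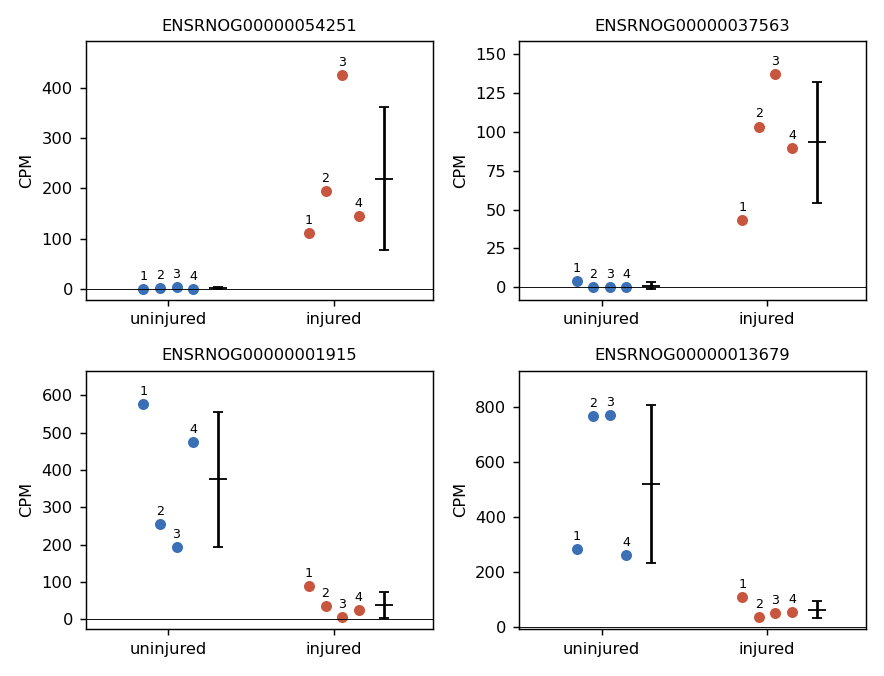
Level in CPM (y axis) of the 2 genes with the largest rises (top) and the 2 with the largest falls (bottom) in each library, with replicate numbers on the points and the group mean and SD beside them (n = 4). Injured replicate 1 is the lowest injured library for both rises and the highest for both falls.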

How the data were processed

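The libraries were made with CEL-Seq2, which tags transcripts near the 3' end, per the labels' protocols. The authors deposited whole-number counts per gene. Named in the submitters' processing notes, without role or order, are the build Rnor_6.0 and the tools HTSeq 0.6.0 and HISAT2 2.0.4. Annotation release and strand setting: not given in the sources used here. Therefore genes with near-identical or overlapping copies may share counts.

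The test was run with edgeR 4.0.16 under R 4.3.3: filterByExpr by group, TMM factors, and a robust quasi-likelihood fit to 12 libraries with group as the only term (9 residual degrees of freedom). Intervals of fold changes came from limma 3.58.1 with voom, at 95%, and DESeq2 1.42.0 was an alternative. Counting intervals are exact Clopper-Pearson and cover counting error only. Thinning drew 204836 counts from each library. The code was tested on simulated counts. Replicates were checked for libraries deposited more than once, and every pair differed beyond counting noise (chi-square over its degrees of freedom at least 2.99).

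The members, gene lists and tests were chosen with earlier results of these data known. The gene lists, promoter motifs and naming by symbol needed gene names and were not run, since 0 identifiers matched. Genes were named by the largest fitted change among called genes with a mean of at least 20 counts and no overlap, held to 2 per direction.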

Additional observations from a re-analysis of the deposited data

Results flagged for a closer look

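By Dixon's test for groups of 4, 1 of the 20 groups of values examined held a library far from the others, and chance gives about 1. ENSRNOG00000037563 was at 4.34 CPM in uninjured replicate 1, from 1 count, and at 0 in the remaining uninjured libraries. Any gene with a lone count in its group meets this test by construction.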

How the results depend on the processing

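In all 20 settings tried, 19 of them planned, 0 genes were called in the opposite direction. The 4 named genes kept their direction and passed the threshold, but they were chosen for large changes in these same libraries. With a mean count of at least 20, where 3113 genes were tested, 1123 genes were called, 580 of them higher. The test against a 2-fold change, chosen after seeing the data, called 527 genes, 381 higher and 146 lower, and asks for a larger change by construction. Leaving out each library gave from 1369 calls without injured replicate 3 to 1813 without uninjured replicate 4, and 1787 without injured replicate 1. Of the 1692 genes called, 833 higher and 740 lower ones were called again without injured replicate 1. With no filter 1175 genes were higher and 958 lower among 18333. Without the stimulated libraries, 812 genes were higher and 738 lower among 5321. In that setting 112 genes rose and 4 fell at least 8-fold. Thinning to equal totals gave 648 and 614 among 3892, DESeq2 gave 906 and 857, and the correction for identifiers gave 872 and 850. The replicate numbers were not taken as pairs: deviations of same-numbered uninjured and injured libraries correlated at -0.197, -0.301, 0.294 and 0.401 for numbers 1 to 4, and those of other pairs at -0.348 to 0.288. Numbers 3 and 4 thus lay above every other pair, numbers 1 and 2 did not, and 4 of the 8 libraries correlated best with their own number. With a replicate block 953 genes were higher and 848 lower, 1801 in all. Depth limits the genes below the filter, which were not tested.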

Other observations

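Genes counted in 1 group alone depended on depth. At the deposited depth, 99 genes had no count in uninjured cord and a count in all 4 injured libraries, and 8 genes showed the opposite pattern. After thinning each library to 204836 counts the numbers were 67 and 32. Injured libraries had the higher mean total (465915 ± 78507 against 332304 ± 89069, SD, n = 4 each; exact two-sided permutation p = 0.114, adjusted p = 0.152).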
